A study of Homo sapiens with 9 samples.

Results

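The genes described here make, carry and break down the catecholamines dopamine, noradrenaline and adrenaline. They were TH, DDC, DBH, PNMT, GCH1, SLC18A1, SLC18A2, SLC6A2 and MAOA, and all of their probe sets with a single gene symbol in the platform annotation were taken, each on its own. This gave 20 probe sets of 9 genes, out of 44988 probe sets of 18132 genes tested. The RNA came from LAN-1, an established human neuroblastoma cell line, which had been mixed into tumor-free bone marrow and recovered with magnetic beads through GD2, a ganglioside on the surface of neuroblastoma cells. Each of 9 samples was hybridized to 1 PrimeView array, and expression was read as a log2 signal per probe set after robust multi-array averaging (RMA). The comparison asked how freezing, thawing and a further gradient changed the RNA profile.

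In the first group, the 3 arrays labelled fresh, the cells were neither frozen nor thawed. In the second, the 3 arrays labelled frozen without gradient, mononuclear cells with the spiked LAN-1 cells were frozen in DMSO and thawed, and LAN-1 cells were then recovered with beads. In the third, the 3 arrays labelled frozen with gradient, a Lymphoprep density gradient, which separates mononuclear cells from granulocytes and red cells, was added between thawing and the beads. Of both frozen conditions, the study's text gives more altered genes to the one with the added gradient, whereas here the arrays labelled without gradient differed from fresh in more probe sets. The gradient labels may therefore be exchanged, which could not be settled from the files, and every frozen condition named below is that of the deposited titles. All 9 samples shared the cell line, the spiking into marrow, a first density gradient and the bead enrichment. A single cell line stands for neuroblastoma here. The study describes 3 biological replicates per treatment, lettered A to C across the 3 conditions. The sources used do not tie these letters to the replicate number (1, 2 or 3 in the titles). Nor do they say what arrays with the same number had in common. The p-values measure only the spread between these samples, which may in part be technical.

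Catecholamines are made from tyrosine, which TH hydroxylates to L-DOPA in the rate-limiting step with the help of tetrahydrobiopterin, the cofactor whose synthesis GCH1 starts. DDC turns L-DOPA into dopamine, DBH turns dopamine into noradrenaline inside vesicles, and PNMT methylates noradrenaline to adrenaline. SLC18A1 and SLC18A2 load the amines into vesicles, SLC6A2 takes noradrenaline back into the cell, and MAOA oxidizes it on the outer mitochondrial membrane. Neuroblastoma arises from the sympathetic lineage, and catecholamine breakdown products in urine are a classic marker of the tumor.

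With 1 probe set per gene, chosen by its mean, the average log2 signal of 8 measured neuroblastoma markers lay between 11.1 and 11.5 on every array, and that of 4 general leukocyte markers was 5.01 to 5.31 on the fresh arrays, 4.83 to 5.18 without gradient and 4.93 to 5.46 with gradient. These values belong to different probes and give no ratio of cells. Of 14 leukocyte probe sets, only CORO1A 11756393_x_at passed the criterion. It was higher without gradient than fresh by 1.22 (1.38% of all probe sets were higher). With against without gradient it differed by -1.14 (2.66% were lower). The medians over the 14 had the opposite signs, at -0.09 and 0.20, beside -0.06 and 0.10 over all probe sets. Markers of other marrow cells differed between conditions. HBB, the beta chain of hemoglobin, was lower than fresh past the criterion on its 3 probe sets, with differences of -2.06 to -3.97 without gradient (0.144% of all probe sets were lower) and -1.62 to -2.15 with gradient (0.0267%). No other of the 11 erythroid probe sets, of 4 genes, passed. The median over these 11 was -0.36 without gradient and -0.02 with gradient, beside -0.06 and 0.01 over all probe sets. With gradient the other erythroid genes went either way, for example SLC4A1 11726489_at by 0.48 and ALAS2 11738208_a_at by -0.17. The mean of 8 granulocyte markers was 6.12 to 7.69 on the fresh arrays, 4.74 to 5.49 on those without gradient and 5.36 to 6.44 on those with gradient. The 3′ minus 5′ difference of the GAPDH control probe sets, which grows as labelled RNA gets shorter, was 1.56 to 4.92, 0.94 to 1.45 and 2.07 to 6.73 in the same order. In bulk samples of this kind, fewer cells of a type and less RNA per cell cannot be told apart.

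Promoters are shown for DBH, DDC and MAOA, because 1 probe set of each differed between replicate numbers, as described below. A shared control of these genes was not tested. The sequences are the 250 bases before RefSeq transcript starts (GRCh38.p14), written 5′ to 3′ along the gene. Of the 9 genes, 4 had an entry and DDC had a pair of starts. Capitals mark ATTA, the core that homeodomain factors bind, and TGACG, the first letters of the cyclic AMP response element, each searched on both strands (TAAT is ATTA on the other strand).
DBH (chr9:133636113-133636362, plus strand): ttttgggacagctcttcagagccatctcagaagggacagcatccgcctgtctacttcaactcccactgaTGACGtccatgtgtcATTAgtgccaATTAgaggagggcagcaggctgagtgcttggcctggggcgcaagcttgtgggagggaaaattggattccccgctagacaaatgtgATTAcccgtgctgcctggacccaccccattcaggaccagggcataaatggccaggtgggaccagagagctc
DDC (chr7:50561072-50561321, minus strand): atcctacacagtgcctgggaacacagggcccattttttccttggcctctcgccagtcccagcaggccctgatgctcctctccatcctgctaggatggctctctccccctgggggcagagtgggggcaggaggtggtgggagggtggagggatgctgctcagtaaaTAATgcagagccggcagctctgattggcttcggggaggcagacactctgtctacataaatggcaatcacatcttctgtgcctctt
DDC (chr7:50565406-50565655, minus strand): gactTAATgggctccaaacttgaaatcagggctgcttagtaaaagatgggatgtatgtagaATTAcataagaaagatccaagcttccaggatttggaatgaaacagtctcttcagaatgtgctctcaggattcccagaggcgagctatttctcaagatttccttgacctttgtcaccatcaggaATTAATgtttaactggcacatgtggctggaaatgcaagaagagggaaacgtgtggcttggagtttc
MAOA (chrX:43656049-43656298, plus strand): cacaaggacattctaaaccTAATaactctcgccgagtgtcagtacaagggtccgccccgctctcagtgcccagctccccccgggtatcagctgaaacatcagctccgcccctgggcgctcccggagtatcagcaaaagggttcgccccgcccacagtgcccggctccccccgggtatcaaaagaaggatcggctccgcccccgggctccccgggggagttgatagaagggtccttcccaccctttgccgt
The DBH promoter held 3 ATTA, whose first bases lay 166, 156 and 71 bases before the start, and 1 TGACG at 181 bases. The upstream DDC promoter held 4 ATTA, of which 2 overlapped, and the other DDC promoter and the MAOA promoter held 1 each. MAOA also held 4 GGGCGG, the letters Sp1 binds, read on the opposite strand as CCGCCC. Over 35116 promoters of the same length, ATTA was found in 47.4%, TGACG in 21.2% and GGGCGG in 42.6%, so each motif is common.

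TH, the rate-limiting enzyme, differed most in the arrays labelled without gradient, whose label may be exchanged with the other frozen condition. It was the 1 gene of the 9 with a probe set past the criterion, which asks for a difference beyond 1 on the log2 scale in either direction at an unadjusted p under 0.05. Its probe set 11735392_x_at read 6.31, 6.52 and 6.81 on fresh arrays 1, 2 and 3, then 8.51, 7.49 and 7.02 without gradient, and 5.60, 6.43 and 6.50 with gradient. All 3 arrays without gradient lay above all 6 others, and array 1 without gradient was the highest. The mean was 6.55 ± 0.25 fresh, 7.68 ± 0.76 without gradient and 6.18 ± 0.50 with gradient (SD, n = 3 each). It was higher without gradient than fresh by 1.13 on the log2 scale (2.19-fold, standard error 0.38, limma with Benjamini-Hochberg adjusted p = 0.277). With gradient it was lower than without gradient by 1.50 (2.83-fold, standard error 0.38, limma adjusted p = 0.254), and the arrays with gradient overlapped the fresh ones. Neither difference passed an adjusted p under 0.05, and 0 of all 44988 probe sets did so by limma in any comparison, while 6117, 2132 and 8518 had an unadjusted p under 0.05 in the comparisons of the arrays without gradient with fresh, of those with gradient with fresh, and of both frozen conditions.

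The size of the TH difference depended on the replicate number. Within number 1, 2 and 3, the array without gradient exceeded the fresh one by 2.21, 0.97 and 0.21, and the array with gradient was below the one without by 2.91, 1.06 and 0.52. The order of the conditions was therefore the same in each number, and number 1 gave the widest gaps. The call against fresh was lost when array 1 without gradient was left out, with a difference of 0.71, and when fresh array 1 was left out, with a difference of 1.01 whose unadjusted p exceeded 0.05. With the GAPDH difference between both ends as a covariate, the difference against fresh was 0.73 (limma adjusted p = 0.388) and no longer passed, whereas the difference of with from without gradient was -1.003 (limma adjusted p = 0.778) and still did. The part of labelling length in the TH values was not otherwise tested.

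The other TH probe sets differed in the same direction by less. Probe set 11733440_a_at read 7.37, 7.73 and 7.73 fresh, 8.78, 8.27 and 7.69 without gradient, and 7.61, 7.61 and 7.34 with gradient. Probe set 11735391_a_at read 7.61, 7.61 and 7.73, then 8.92, 8.32 and 7.73, then 7.69, 7.79 and 7.37. In both, arrays 1 and 2 without gradient stood above the other arrays, and array 3 without gradient lay among the fresh arrays. They were higher without gradient than fresh by 0.63 (95% interval 0.06 to 1.21, limma adjusted p = 0.33) and 0.67 (0.07 to 1.28, limma adjusted p = 0.324), each with an unadjusted p under 0.05 but short of the fold required. With gradient they were below the arrays without by 0.73 and 0.71 (limma adjusted p = 0.254 for both), and each passed the criterion only when array 3 without gradient was left out (-1.01 for both). Against fresh, the arrays with gradient differed by -0.09 (95% interval -0.67 to 0.48) and -0.03 (-0.64 to 0.57).

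**Figure D1:**
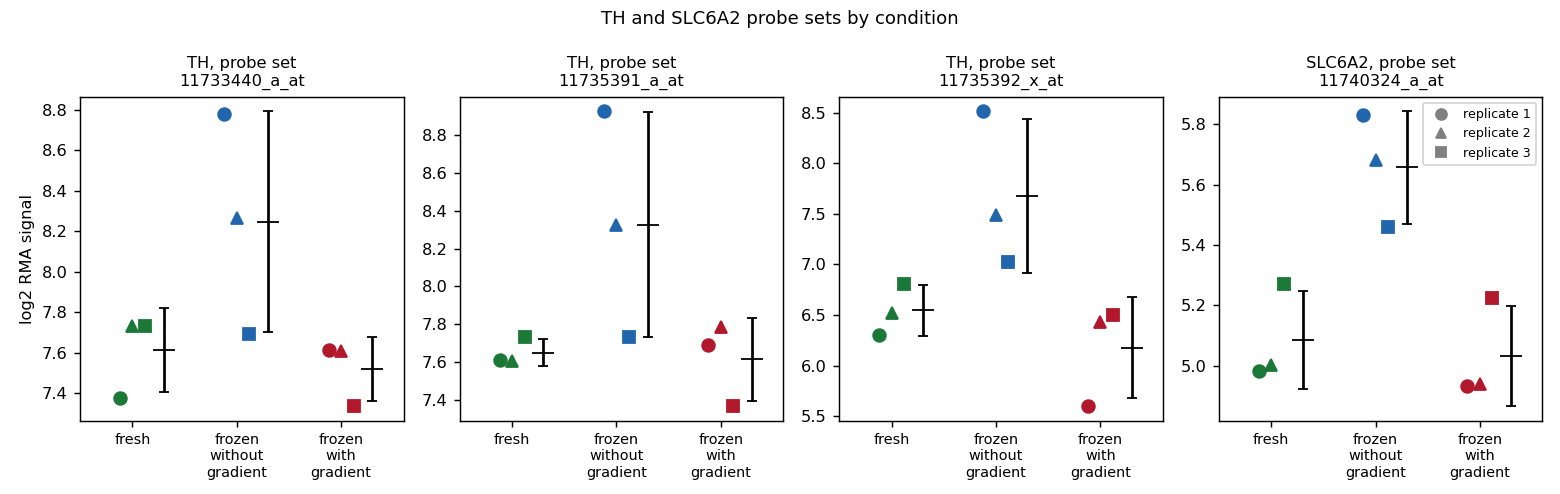
Log2 RMA signal of the 3 TH probe sets and 1 SLC6A2 probe set (vertical axis, a separate scale in each panel) on the arrays of each condition. Shapes mark the replicate number, and the bar gives the mean and SD of 3 arrays. Array 1 without gradient is the highest in all 4 panels, and TH 11735392_x_at and SLC6A2 11740324_a_at lie above both other conditions on all 3 arrays without gradient.

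DBH, which makes noradrenaline, differed more between replicate numbers than between conditions. Its single probe set, 11744309_at, read 8.97, 8.21 and 6.95 on fresh arrays 1, 2 and 3, then 9.29, 8.31 and 7.01 without gradient, and 8.62, 8.01 and 6.94 with gradient. Every array of number 1 lay above every array of number 2, and those above every array of number 3. The means by number were 8.96 ± 0.33, 8.18 ± 0.15 and 6.97 ± 0.03 (SD, n = 3 each), a range of 1.99 on the log2 scale or 3.97-fold, against a range of 0.34 between the condition means. Between conditions it differed by 0.16 without gradient against fresh (95% interval -1.41 to 1.73), -0.18 with gradient against fresh (-1.76 to 1.39) and, between the frozen conditions, -0.34 with gradient against without it (-1.92 to 1.23). With the replicate number as a block, the intervals in this order were -0.15 to 0.47, -0.50 to 0.13 and -0.65 to -0.03 (limma adjusted p = 0.131 for the last). Within numbers 1, 2 and 3 the difference between the frozen conditions was -0.67, -0.30 and -0.06.

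The replicate number was then tested in a model with condition, a choice made after these values were seen. In limma's F test for number, DBH had an adjusted p of 0.0032 over all 44988 probe sets, and of 0.00309 to 0.0371 when any 1 array was left out. Over all probe sets, 868 passed an adjusted p under 0.05 by number (1.93%), and 3 of the 20 member probe sets did. The numbers were fully separated in 2 of the 20 member probe sets, against 1.66% of all. The GAPDH difference also varied by number, from 1.09 to 6.73 in number 1, 1.45 to 3.56 in number 2 and 0.94 to 2.07 in number 3, and with it as a covariate DBH kept an adjusted p of 0.00392 from limma.

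DDC, which makes dopamine, followed the same order. Probe set 11722740_a_at read 9.07, 8.24 and 7.76 fresh, 9.18, 8.10 and 7.69 without gradient, and 8.83, 8.18 and 7.72 with gradient. The numbers again did not overlap, with means of 9.03, 8.17 and 7.72, a range of 1.30 or 2.47-fold (limma adjusted p = 0.00767 by number). The condition means lay within 0.12 of each other. The adjusted p was 0.0171 with the GAPDH covariate, and it exceeded 0.05 without fresh array 1, without fresh array 3 or without array 3 with gradient (limma adjusted p of 0.058 to 0.074 over these cases for DDC and MAOA).

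The remaining DDC probe sets did not pass the test by number. Probe set 11722741_a_at had number means of 6.25, 6.0 and 5.84, the same order with a limma adjusted p of 0.173, and its arrays with gradient all lay above those without gradient by a mean of 0.30 (limma adjusted p = 0.334). Probe set 11722742_x_at averaged 3.77 over the arrays and its condition means lay between 3.72 and 3.80. PNMT, the adrenaline-forming enzyme, lay between 4.31 and 4.93 on its probe set 11730565_at over the 9 arrays, and its conditions overlapped in every comparison.

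**Figure D2:**
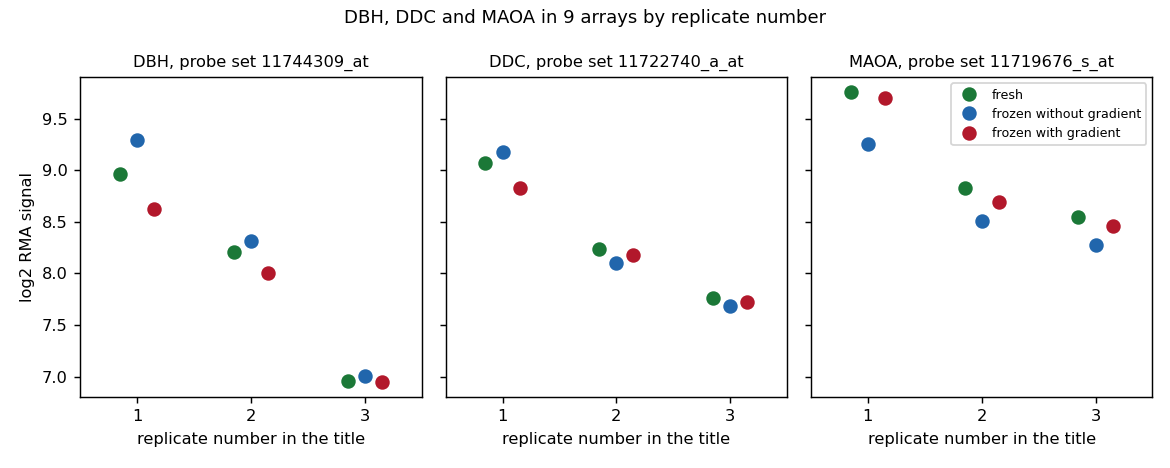
Log2 RMA signal (vertical axis, shared) of 1 probe set each of DBH, DDC and MAOA on the 9 arrays. These are ordered by the replicate number in the titles and colored by condition. In each panel the 3 conditions lie close together within a number, and number 1 is the highest, with DBH means of 8.96 in number 1 and 6.97 in number 3.

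MAOA, the breakdown enzyme, shared the high level of number 1. Its probe set 11719676_s_at read 9.76, 8.83 and 8.55 fresh, 9.25, 8.50 and 8.28 without gradient, and 9.70, 8.70 and 8.46 with gradient. Number 1 stood above the rest, while numbers 2 and 3 overlapped. The means by number were 9.57, 8.68 and 8.43, a range of 1.14 or 2.20-fold (limma adjusted p = 0.00763 by number, and 0.0605 with the GAPDH covariate). The _s_at suffix marks probes that can also hit transcripts of other genes. The other MAOA probe sets did not pass the test by number (limma adjusted p of 0.095 to 0.38).

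Within each number, this MAOA probe set was lowest in the array without gradient. Its difference from fresh was -0.37 (95% interval -1.32 to 0.59, and -0.62 to -0.11 under the replicate block, limma adjusted p = 0.118). This difference turned to 0.26 with the GAPDH covariate. Between the frozen conditions it was 0.27 higher with gradient, with an interval of 0.02 to 0.53 under the replicate block (limma adjusted p = 0.137), and it turned to -0.51 with the GAPDH covariate. MAOA 11745923_x_at read 7.45, 7.05 and 6.47 fresh, 6.55, 6.21 and 6.40 without gradient, and 6.93, 6.53 and 6.43 with gradient, so arrays 1 and 2 lay below their fresh counterparts while array 3 lay close to it. It was lower without gradient than fresh by a log2 difference of -0.60 (standard error 0.25, limma adjusted p = 0.339), with an unadjusted p under 0.05, which missed the fold required. Probe set 11755443_a_at differed by -0.38 without gradient and -0.37 with gradient against fresh (limma adjusted p = 0.466 and 0.826), and 11745922_a_at stayed between 4.21 and 4.64. Under the block the intervals of 11755443_a_at were -0.64 to -0.11 and -0.63 to -0.11 (limma adjusted p = 0.119 and 0.531).

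GCH1, which starts the synthesis of the TH cofactor, was lower without gradient than fresh in every replicate number on both probe sets, but neither difference passed the criterion. Probe set 11721734_s_at read 7.01, 6.49 and 5.39 fresh, 5.67, 5.51 and 5.24 without gradient, and 6.75, 6.21 and 5.59 with gradient. Fresh array 3 lay within the range of the arrays without gradient, and the other fresh arrays lay well above it. The difference from fresh was -0.82 (95% interval -1.76 to 0.12, limma adjusted p = 0.425), made up of -1.33, -0.97 and -0.15 within numbers 1, 2 and 3. With the replicate number as a block, the interval of this difference was -1.30 to -0.33 (limma adjusted p = 0.104). Without fresh array 3 it was -1.27 and passed the criterion. Between the frozen conditions it was higher with gradient by 0.71 (limma adjusted p = 0.323), and by 1.003 without array 3 with gradient, which passed the criterion. With the replicate number as a block its interval was 0.22 to 1.19 (limma adjusted p = 0.089), and with the GAPDH covariate the difference turned to -0.12.

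The second GCH1 probe set, 11721733_a_at, read 5.72, 5.64 and 4.51 fresh, 4.89, 4.76 and 4.44 without gradient, and 5.08, 4.95 and 4.43 with gradient. Its difference was -0.59 without gradient (limma adjusted p = 0.459) and -0.47 with gradient (limma adjusted p = 0.826), each against fresh. With the replicate number as a block, the intervals were -0.99 to -0.20 and -0.87 to -0.07 (limma adjusted p = 0.113 and 0.531). On 11721734_s_at the difference with gradient against fresh was -0.11 (limma adjusted p = 0.957). With the GAPDH covariate, the differences without gradient against fresh were -0.16 for 11721734_s_at and -0.17 for 11721733_a_at, and that of 11721733_a_at between the frozen conditions turned from 0.12 to -0.41. The granulocyte markers, given above, were also lowest without gradient, with 5 of 11 probe sets past the criterion below fresh (0.144% of all). The averages of 7 monocyte markers overlapped, at 5.54 to 6.05 fresh, 5.18 to 5.90 without gradient and 5.62 to 6.37 with gradient. Of 22 monocyte probe sets, 1 passed without gradient against fresh. This was VCAN 11748164_a_at, which was higher by 1.67 (limma adjusted p = 0.271, beside 1.38% of all probe sets higher). The part of these markers in the GCH1 values was not tested.

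**Figure D3:**
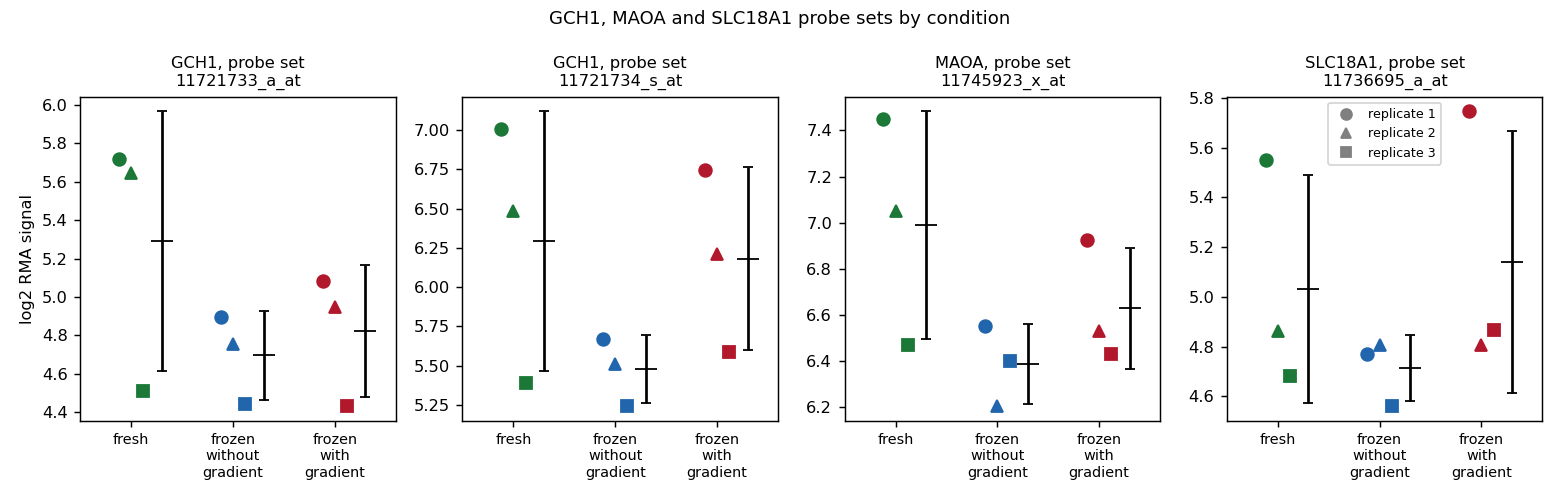
Log2 RMA signal of both GCH1 probe sets, MAOA 11745923_x_at and SLC18A1 11736695_a_at (vertical axis, a separate scale in each panel) on the arrays of each condition, with shapes for the replicate number and a bar for the mean and SD of 3 arrays. In all 4 panels arrays 1 and 2 are higher than array 3 within the fresh condition, and the arrays without gradient vary least.

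SLC6A2, the noradrenaline reuptake carrier and the route by which radiolabelled MIBG enters neuroblastoma cells, gave a different picture on each of its 3 probe sets. Probe set 11740324_a_at read 4.98, 5.0 and 5.27 fresh, 5.83, 5.68 and 5.46 without gradient, and 4.93, 4.94 and 5.22 with gradient. As for TH 11735392_x_at, all arrays without gradient lay above all others. The differences were 0.57 against fresh (1.49-fold, standard error 0.15, limma adjusted p = 0.258) and -0.63 for with against without gradient (limma adjusted p = 0.254), both with an unadjusted p under 0.05 and short of the fold required.

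The other SLC6A2 probe sets did not follow it. Probe set 11740325_a_at was lower with gradient than fresh on all arrays, by -0.41 (limma adjusted p = 0.826), from 5.05 ± 0.06 to 4.64 ± 0.32 (SD, n = 3 each). Probe set 11753967_a_at read 8.0, 7.47 and 7.16 fresh, 7.61, 7.69 and 7.20 without gradient, and 7.61, 8.64 and 7.71 with gradient. The highest value was that of array 2 with gradient, and the condition differences ranged from -0.05 to 0.49 with 0.349 as the smallest adjusted p from limma.

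The vesicular carriers passed the criterion in no comparison. SLC18A1, found in chromaffin cells, read 5.55, 4.86 and 4.68 fresh, 4.77, 4.81 and 4.56 without gradient, and 5.75, 4.81 and 4.87 with gradient on probe set 11736695_a_at. Only array 1 fresh and array 1 with gradient stood apart. SLC18A2, the carrier of most monoamine neurons, lay between 3.30 and 3.91 on 11734588_a_at and between 4.52 and 5.25 on 11759609_at. The former was higher with gradient on every array than in either other condition, by a mean of 0.18 against fresh and 0.28 against those without gradient, with an adjusted p of 0.826 and 0.266 from limma.

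**Figure D4:**
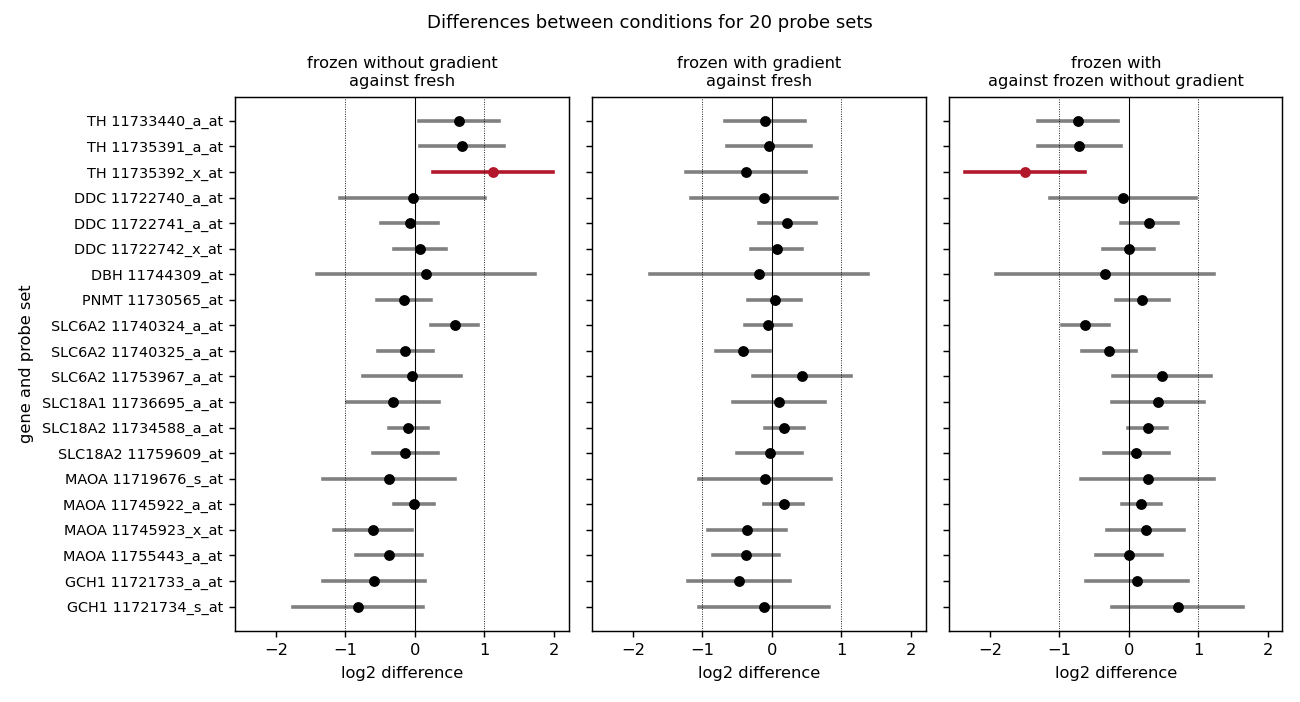
Log2 difference (horizontal axis) of each of the 20 probe sets in the 3 comparisons, with 95% intervals from limma. Dotted lines mark a log2 difference of 1 in either direction, and red marks the probe set past the criterion, which is TH 11735392_x_at at 1.13 without gradient against fresh and at -1.50 with against without gradient.

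Counted over the 20 probe sets, the conditions differed in few. Without gradient against fresh, 1 of 20 was higher past the criterion, beside 1.38% of all probe sets, and 0 were lower, beside 0.144%. With gradient against fresh, 0 of 20 passed in either direction, beside 0.0467% of all. With against without gradient, 1 of 20 was lower, beside 2.66%, and 0 were higher, beside 0.0622%. With the replicate number as a block, 1941 probe sets in place of 1224 passed in that comparison (4.31%), still with 1 member. Under that block, 8 of 20 members had an unadjusted limma p under 0.05 (32.4% of all), with DBH, 1 DDC, 1 MAOA and 1 GCH1 probe set beside the 4 found without it.

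At an unadjusted limma p under 0.05 alone, 5 of 20 members passed without gradient against fresh (13.6% of all), 1 with gradient against fresh (4.74%), and 4 in the comparison of both frozen conditions (18.9%). Conditions did not overlap for 2 of 20 members (23.2% of all), 2 (7.75%) and 6 (30.4%) in the same order. The median log2 differences over the members were -0.08, -0.07 and 0.12, and those over all probe sets -0.06, 0.01 and 0.10. The 5 members without gradient against fresh were the 3 TH probe sets, SLC6A2 11740324_a_at and MAOA 11745923_x_at, and the counts for with against without gradient lay near the shares of the whole table. Each condition enters 2 of the 3 comparisons, so these counts share arrays.

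Between replicate numbers the members spread more than between conditions. The median range of the number means was 0.47 on the log2 scale for the members and 0.28 for all probe sets, and that of the condition means was 0.40 and 0.31. The number range was the larger in 13 of 20 members and in 45.7% of all probe sets. By an unadjusted limma p for number, 10 of 20 members passed 0.05, beside 24.1% of all. GCH1 had number means of 6.48, 6.07 and 5.41 on 11721734_s_at, a range of 1.07 in the same order as DBH, with a limma adjusted p of 0.0799. TH had 7.92, 7.87 and 7.59 on 11733440_a_at and 8.08, 7.91 and 7.61 on 11735391_a_at, again highest in number 1, and 6.81, 6.81 and 6.78 on 11735392_x_at. None passed the test by number (limma adjusted p = 0.547, 0.379 and 0.997 in this order). Array 1 without gradient read 8.78 on 11733440_a_at and 8.92 on 11735391_a_at. The fresh array and the array with gradient of number 1 read 7.37 and 7.61 on the former, and 7.61 and 7.69 on the latter.

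**Figure D5:**
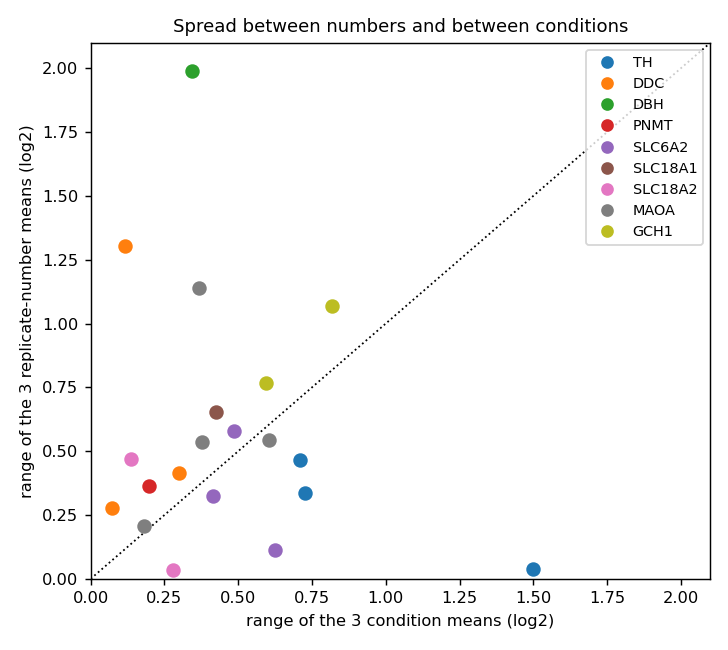
Range of the 3 replicate-number means (vertical axis, log2) against the range of the 3 condition means (horizontal axis, log2) for the 20 probe sets, colored by gene. Points above the dotted line of equal ranges, 13 of 20, differ more between numbers; DBH is the highest at 1.99, and TH 11735392_x_at lies farthest to the right at 1.50.

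Genes of neighboring steps were read from lists in the same fit. No probe set passed the criterion in any of the 3 comparisons among 16 for tetrahydrobiopterin and electron supply (6 of 7 genes measured), 26 for other amine and amino acid carriers (7 of 9), 14 for other amine and acetylcholine synthesis (7 of 8), 24 for adrenergic and dopamine receptors (13 of 14) or 17 for dense core vesicle proteins (8 of 10). Their median differences without gradient against fresh lay between -0.07 for the receptors and 0.09 for the vesicle proteins, and those between the frozen conditions between -0.23 for the vesicle proteins and 0.20 for the receptors. Among 16 probe sets for other breakdown enzymes (6 of 10 genes), 1 of ALDH2, which oxidizes the aldehydes that monoamine oxidases form, passed. ALDH2 11746896_a_at was higher without gradient than fresh by 1.61 (limma adjusted p = 0.292) and differed by -1.36 with against without gradient (limma adjusted p = 0.261), while ALDH2 11715627_x_at differed by 0.50 and -0.81.

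Among 24 probe sets of transcription factors of noradrenergic cells (10 of 12 genes measured), 1 was higher without gradient than fresh (1.38% of the whole table) and 3 were lower with than without gradient (2.66%). HAND2, a basic helix-loop-helix factor of sympathetic neurons, passed in both comparisons on 11745698_x_at, with differences of 1.48 (limma adjusted p = 0.26) and -1.66 (limma adjusted p = 0.254). The other HAND2 probe set 11729290_a_at, with a mean of 12.68, differed by 0.08 and -0.27. ISL1, a LIM homeodomain factor, differed by -1.22 on 11725757_at and by -0.02 on 11725758_at, with against without gradient. MYCN, the oncogene amplified in high-risk neuroblastoma, differed by -2.59 on 11750948_a_at (limma adjusted p = 0.256) and by 0.22 on 11719869_a_at, and the differences of its remaining probe sets were -0.06 and -0.03. In each of these genes, as in TH, the criterion was passed by 1 probe set and not by the others. Over all 24 probe sets the median difference was 0.06 without gradient against fresh and -0.06 between the frozen conditions, beside -0.06 and 0.10 over the whole table.

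By replicate number, some of these genes sided with DBH and DDC and others went the opposite way. CHGB, a granin of dense core vesicles, had means of 10.79, 9.99 and 7.76 in numbers 1, 2 and 3 on 11717475_a_at, the same order as DBH (limma adjusted p = 0.000332). PAM, which amidates vesicle peptides, had 8.78, 8.06 and 7.65 on 11740278_s_at (limma adjusted p = 0.0206), and CYB561, which passes electrons into vesicles for DBH, had 6.08, 5.16 and 4.86 on 11721693_a_at (limma adjusted p = 0.0303). By this test 2 of 17 vesicle, 1 of 16 cofactor, 5 of 24 transcription factor and 5 of 26 carrier probe sets passed, beside 1.93% of all. The 5 carrier probe sets were all of SLC3A2. The test was passed by 0 of 24 receptor, 0 of 16 other breakdown enzyme and 0 of 14 other amine synthesis probe sets. TFAP2B, a transcription factor of sympathetic neurons, had 6.18, 5.62 and 4.50 on 11733305_a_at (limma adjusted p = 0.0134). CHGB, PAM, CYB561 and TFAP2B each passed on the probe set named here and not on their others.

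GATA2, a zinc finger factor upstream of noradrenergic genes, ran the other way on all its probe sets but 11762487_at. These were lower in number 1 than in number 3, and 3 of its 6 probe sets passed the test by number. On 11752208_a_at its means were 7.42, 7.97 and 9.44 in numbers 1, 2 and 3 (limma adjusted p = 0.0238). SLC3A2, the heavy chain of amino acid carriers that bring in tyrosine, was lowest in number 1 on all 7 of its probe sets and passed the test by number on 5, with means of 9.22, 10.15 and 10.72 on 11754529_x_at (limma adjusted p = 0.0317). ISL1 11725757_at was also lowest in number 1, with means of 5.05, 5.70 and 6.51 (limma adjusted p = 0.0424). Markers of platelets, in contrast, were highest in number 2, where the mean of 5 genes was 6.28 to 7.04, beside 5.4 to 6.17 in number 1 and 5.54 to 6.43 in number 3. The part of these marrow markers in the values of DBH, DDC and MAOA was not tested.

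The genes most like 3 members over the 9 arrays were sought among 25816 probe sets with a mean log2 signal of at least 5. MAOA 11719676_s_at, the member with the highest mean, was followed most closely by AKR1C1, PURG and HCFC1R1 (Pearson r of 0.992 each) and OCEL1 (0.990). DBH, added after its values were seen, was followed by CSGALNACT1 (0.994), CD248 (0.988), SEPTIN6 (0.983) and NRSN1 (0.982). TH 11735391_a_at was followed by DHX35, GAA, RNF213 and MGAT4B (0.970 each). These are descriptions over 9 arrays that share conditions, numbers and labelling.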

How the data were processed

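RNA of LAN-1 cells was measured on 9 PrimeView arrays, 3 per condition, from 100 ng of total RNA each. The authors deposited log2 values per probe set made with RMA, which corrects background, normalizes arrays by quantiles and summarizes probes; its version is not given in the sources used here. No raw intensities were used, so these steps could not be varied, and the number of arrays limits the precision. Of 49395 probe sets, 102 controls, 1832 with several symbols and 2473 with no symbol in the platform annotation were left out. The suffix _s_at marks probes that hit several genes' transcripts, and _x_at some probes that match others, so their values are uncertain to that extent. Levels of members were not compared between probe sets, and highest means only chose a probe set per marker and the target of the likeness search.

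Groups were taken from the titles, although both gradient labels may be exchanged. The remaining 44988 probe sets were fitted with limma 3.58.1 in R 4.3.3 (lmFit and eBayes, two-sided, 3 condition means). The criterion asked for a difference beyond 1 on the log2 scale at an unadjusted p under 0.05, the study's thresholds with its p read as unadjusted, which its methods leave unclear, and p-values were also adjusted by Benjamini-Hochberg over all probe sets. Named were all member probe sets, genes of the related lists past the criterion, and the 4 genes most like MAOA and TH by Pearson correlation. The members and lists were chosen with earlier results of these data known. Added after seeing the values were the F test for replicate number with the genes it named, differences within numbers and DBH as a likeness target. Same-numbered arrays deviated together with correlations of 0.38, 0.18 and 0.46 for with against without gradient. The numbers were taken to pair those arrays from these values, because the study's replicate letters are not tied to the numbers. Alternatives were other probe set choices, median centring, cyclic loess, a mean log2 of at least 5, an intensity trend, array weights, the GAPDH end difference (3′ minus 5′) as a covariate, the replicate block, the 6 arrays alone and each array left out. The procedure was tested on simulated data in which arrays varied independently around a common mean per probe set, apart from planted differences. The simulation could therefore not show how same-numbered arrays that deviate together affect the tests of conditions.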

Additional observations from a re-analysis of the deposited data

How the results depend on the processing

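With 3 arrays per condition, the counts moved with the settings. Of 1050 alternative values for member differences, 1039 stayed on their side of the criterion, 11 did not, and 82 values that did not pass changed sign. Without gradient against fresh, 686 probe sets and 1 member passed. Counts became 448 with the most variable probe set per gene, 113 with the probe set of highest mean (0 members), 1658 with array weights (2 members), 289 with the GAPDH covariate (0 members) and 1092 with the replicate block, and leaving out 1 array gave 129 to 2231 (0 to 2 members). With gradient against fresh, 21 probe sets and 0 members passed. This became 12 with the probe set of highest mean, 166 with array weights (1 member, SLC6A2 11753967_a_at) and 36 with the replicate block, and 16 to 266 with 1 array left out. With against without gradient, 1224 probe sets and 1 member passed. This became 788 with the most variable probe set, 201 with that of highest mean (0 members), 120 with the GAPDH covariate (2 members, DBH being added at -1.45), 1941 with the replicate block, and 2 members with array weights. Leaving out 1 array gave 314 to 3140 (1 to 3 members). By replicate number, 868 probe sets and 3 members passed. This became 530 with the most variable probe set, 240 with the GAPDH covariate and 7958 with array weights (8 members), and 94 to 6560 (1 to 6 members) with 1 array left out. Choosing 1 probe set per gene tests fewer probe sets, 18132 for either choice. On these, without gradient against fresh, the most variable probe set gave 448 and that of highest mean 113. By replicate number, the probe set of highest mean gave 1003 (4 members), more than the 868 over all probe sets. The cause of these changes was not tested for any setting. The array weights did not reach their convergence tolerance.

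The replicate block changed no member's call at the criterion. At an unadjusted p under 0.05 it gave 9 members without gradient and 3 with gradient, each against fresh, beside 22.3% and 9.21% of all. Correlations of same-numbered arrays were 0.39, 0.06 and 0.50 without gradient against fresh and 0.70, 0.03 and 0.76 with gradient against fresh, and 7 of 9 arrays correlated best with an array of their own number, a hint from the data. GCH1 11721734_s_at passed the criterion with array weights (-1.01).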
